A study of Homo sapiens with 6 samples.

Results

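The genes described are 10 that encode enzymes of quinone, aldehyde and related detoxification: NQO1, NQO2, AKR1B1, AKR1C1, AKR1C2, AKR1C3, CBR1, POR, EPHX1 and GSTP1. They were chosen by symbol from a table of 26789 genes because dopamine oxidises to quinones, and each symbol occurred once. The cells were SK-N-SH, a human neuroblastoma line labelled wild type, of which 3 control samples received medium and 3 received dopamine for 6 h, after a day in standard medium. The unit of the dopamine dose in the labels seems incomplete, so no dose is given, and the series design text names SH-SY5Y, a subline of SK-N-SH, as the treated line. Nothing in the labels ties the replicates to separate cultures, and the p-values speak only of the variation among these samples, part of which may be technical.

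Markers of neuroblastoma cells were present. All 15 adrenergic neuroblast markers passed the filter on low values, among them the transcription factor gene HAND2 at 128 FPKM and the noradrenaline synthesis gene DBH at 24.1 FPKM in control cells. All 11 markers of mesenchymal neuroblastoma cells did so too, with VIM at 903 FPKM, and SK-N-SH is known to hold cells of both kinds. FPKM counts fragments per kilobase of gene and per fixed number of fragments of the library. Of the leukocyte markers, 5 were in the table, all below 0.1 FPKM. Epithelial keratin genes were also present, KRT18 at 141 ± 17.3 and 95.4 ± 7.91 FPKM and KRT8 at 18.6 ± 1.48 and 14.3 ± 0.661 FPKM in control and dopamine cells (limma adjusted p = 0.11 for both). The epithelial markers EPCAM, CDH1, KRT5 and ESRP1 lay below the filter, at means of 0.152, 0.061, 0.022 and 0.015 FPKM. All 4 tested epithelial markers had a lower mean with dopamine, while 60% of all tested genes had a higher one. These 4 markers are GC-rich, at 55.7 to 61.8%. Of all tested genes, 20.9% at 55 to 60% GC and 11.6% at 60 to 65% GC had a higher mean. After the GC and length correction described below, the median log2 fold change of the 4 markers went from -0.32 to -0.21. The sum over the list ran from 142 to 176 FPKM in control and 107 to 122.8 FPKM in dopamine cells. The part of this in the results that follow was not tested. In such bulk samples, fewer cells of a type and less RNA per cell cannot be told apart.

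Dopamine is a catechol, and catechols oxidise in air or with metals to o-quinones that bind cysteine thiols and can cycle with oxygen. NQO1 passes both electrons to a quinone at once, giving a hydroquinone that can be conjugated and exported, whereas POR passes single electrons and gives semiquinones that react with oxygen. Monoamine oxidase turns dopamine into a reactive aldehyde, which aldo-keto reductases reduce and aldehyde dehydrogenases oxidise. Several of these genes, NQO1 and the AKR1C genes foremost, are textbook targets of NRF2, a transcription factor released from KEAP1 when KEAP1 cysteines are modified. NRF2 binds antioxidant response elements, here searched as TGACNNNGC on both strands.

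The 250 bases before the gene start were taken from RefSeq (GRCh38.p14), where 9 of the 10 genes had 13 start windows, and POR had none in that table. The element was present in 3 of these 13 windows, in CBR1, EPHX1 and GSTP1, and in 10.9% of all 35116 windows. The letters were not in the windows of NQO1, NQO2, AKR1B1 or the AKR1C genes, which says nothing of sequence farther away. The CBR1 and GSTP1 windows are printed 5′ to 3′ with the match in capitals, followed by those of AKR1C1 and AKR1C2, which had no match and are shown because they are nearly the same sequence.
CBR1, chr21:36069774-36070023, plus strand: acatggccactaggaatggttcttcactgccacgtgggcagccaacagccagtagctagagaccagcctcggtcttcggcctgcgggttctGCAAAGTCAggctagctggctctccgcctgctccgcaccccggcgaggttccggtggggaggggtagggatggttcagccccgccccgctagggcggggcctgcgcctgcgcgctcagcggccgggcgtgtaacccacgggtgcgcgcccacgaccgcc
GSTP1, chr11:67583562-67583811, plus strand: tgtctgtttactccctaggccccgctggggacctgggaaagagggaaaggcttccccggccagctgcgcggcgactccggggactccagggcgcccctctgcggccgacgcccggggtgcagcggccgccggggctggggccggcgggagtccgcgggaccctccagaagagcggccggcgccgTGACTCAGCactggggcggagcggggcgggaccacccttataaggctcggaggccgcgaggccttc
AKR1C1, chr10:4963165-4963414, plus strand: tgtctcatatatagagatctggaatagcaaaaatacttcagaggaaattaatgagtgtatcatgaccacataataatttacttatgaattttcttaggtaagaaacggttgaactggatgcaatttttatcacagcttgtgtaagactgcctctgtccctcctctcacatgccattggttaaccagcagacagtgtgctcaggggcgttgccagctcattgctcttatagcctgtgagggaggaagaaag
AKR1C2, chr10:5003858-5004107, minus strand: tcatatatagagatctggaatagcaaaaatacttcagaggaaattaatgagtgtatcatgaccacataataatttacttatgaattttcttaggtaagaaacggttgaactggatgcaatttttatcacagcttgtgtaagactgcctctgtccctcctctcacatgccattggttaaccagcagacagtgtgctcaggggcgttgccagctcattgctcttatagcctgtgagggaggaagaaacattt
In CBR1 the match lay on the opposite strand and began 159 bases before the start. In GSTP1 it began 66 bases before the start and its first letters also matched the TPA response element searched as TGANTCA, which 6.6% of all windows held. The EPHX1 match, 78 bases before the start, was in 1 of its 3 start windows. AKR1C1 and AKR1C2 shared an identical run of 245 of the 250 bases.

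Depth was recovered from pseudogene values, which step by what 1 fragment is worth, and ran from 19392000 to 24220000 fragments per library. The limma test used log2(FPKM + 0.5), was two-sided, and adjusted p by Benjamini-Hochberg over 11791 genes with a mean of at least 1 FPKM. At an adjusted p under 0.05 it called 12 genes, 0.102% of them, of which 10 were higher with dopamine. The rises made up 83.3% of those calls, and 66.7% of the calls after quantile normalization. One feature of the whole table touches every result here. The log2 deviation of genes from their own mean over the 6 libraries moved with GC content differently in the 2 groups. Its slope per 10 points of GC content was 0.02 to 0.22 log2 units in the control libraries and -0.26 to -0.03 in the dopamine libraries. These slopes are relative to the mean of the libraries, so only the difference between groups, not the sign in each, is a result. Because the slopes of the groups did not overlap, a library effect and an effect of dopamine on GC-rich and GC-poor transcripts cannot be told apart. Values after a loess correction for GC content and transcript length are therefore given beside those as deposited for the 9 tested genes and for most related genes named, and the correction may also remove part of a real difference.

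None of the 9 tested genes among the 10 passed the adjusted threshold (limma), and 4 had an unadjusted p under 0.05: NQO1, POR, AKR1C1 and AKR1C3. All 4 were higher with dopamine, and over all tested genes the share with such a p was 24.4% higher and 8.05% lower. AKR1C1 and AKR1C3 passed the filter of a mean of 1 FPKM only through their dopamine values, so they had to be higher to be counted, and the counts here are a description. AKR1C2 lay below the filter and was not tested. In 6 of the 10 genes, 5 of them tested, all 3 dopamine values lay above all 3 control values, in NQO1, AKR1C1, AKR1C2, AKR1C3, CBR1 and POR. Over all tested genes the share was 24.4%. After median-of-ratios scaling, which moved the median log2 fold change of all tested genes from 0.08 to -0.02, 1 of the 9 tested genes was left with groups so apart. The share over all tested genes under that scaling is not given here, so this count has no background to be read against. As deposited, the groups overlapped in the other 4 genes, and in none of the 10 did the dopamine values lie wholly below, against 14.1% of all tested genes. The mean was higher with dopamine in 6 of the 9 tested genes, against 60% of all. The median log2 fold change of the 9 tested genes was 0.13 and that of all tested genes 0.08, and after the GC and length correction it was 0.02 against 0.00. After the correction all dopamine values lay above all control values in 2 of the 9, CBR1 and POR, against 12% of all genes so corrected.

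**Figure D1:**
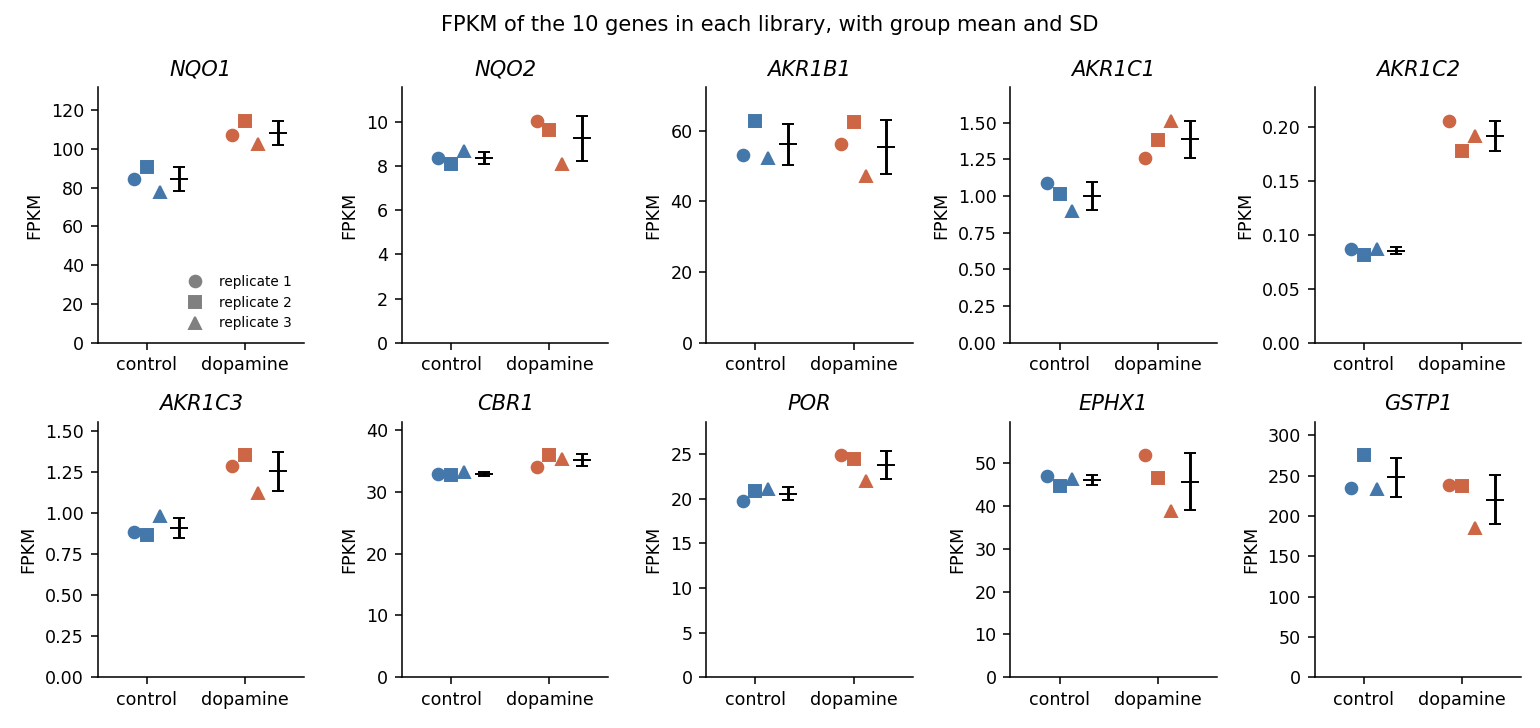
FPKM (vertical axes, from 0) of each of the 10 genes in the 3 control and 3 dopamine libraries, with marker shapes for replicates 1 to 3 and a bar for group mean and SD (n = 3). The dopamine points lie above all control points for NQO1, AKR1C1, AKR1C2, AKR1C3, CBR1 and POR, and the groups overlap for the other 4.

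By level, GSTP1 was the most abundant in control cells at 248 ± 24.0 FPKM (SD, n = 3), followed by NQO1, AKR1B1, EPHX1, CBR1, POR and NQO2. AKR1C1 and AKR1C3 stood near 1 FPKM and AKR1C2 at 0.085 FPKM. FPKM is per length, but no source used here gives the gene lengths behind it, so this order is approximate. At GRCh38 exon lengths of 11558 and 2450 bases, NQO2 and CBR1 would rest on about 2003 to 2409 and 1682 to 1938 fragments. The AKR1C levels are also uncertain because reads shared among these genes can be split or dropped. In control cells each gene's values lay apart from those of its neighbour in this order, except AKR1C1 and AKR1C3, which overlapped. With dopamine AKR1B1 and EPHX1 overlapped as well.

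NQO1 (ENSG00000181019.8, hg19 chromosome 16, 69740899 to 69760854) encodes the NAD(P)H quinone reductase. It stood at 84.6, 90.7 and 78.0 FPKM in control and 107, 115 and 102 FPKM in dopamine cells. The lowest dopamine library thus exceeded the highest control library, and the ratio of the group means was 1.28. The log2 fold change was 0.36 (SE 0.08, 95% interval 0.17 to 0.54, limma adjusted p = 0.11). These values rested on about 5244 to 7230 fragments per library, a counting error of at most 1.38%, against a replicate coefficient of variation of 7.52% in control and 5.73% in dopamine cells. The gene passed without control replicate 1 (adjusted p = 0.0386, when 18.6% of all genes were called) and with sample quality weights (adjusted p = 0.0153, when 22.9% were). Over all 21 alternatives its adjusted p ran from 0.0153 to 0.476.

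NQO1 has a GC content of 46.0%, near the lower edge of its class. Genes of 45 to 50% GC had a median log2 fold change of 0.16, and those of 40 to 45% GC one of 0.32. After the correction the log2 fold change of NQO1 was 0.14 (SE 0.09, limma adjusted p = 0.476) and the groups overlapped, dopamine replicate 3 standing at 6.47 on the corrected log2 scale against 6.66 in control replicate 2. NQO2 (ENSG00000124588.15, chromosome 6, 2988221 to 3019996), a quinone reductase that uses dihydronicotinamide riboside instead of NAD(P)H, had a much lower FPKM. The control libraries held 8.35, 8.10 and 8.66 FPKM and the dopamine libraries 10.1, 9.61 and 8.11 FPKM, with replicates 1 and 2 of the dopamine group above the control range and replicate 3 inside it. The log2 fold change was 0.13 (95% interval -0.09 to 0.36, adjusted p = 0.361), and 0.02 after the correction. It was 0.07 without dopamine replicate 1, 0.22 without dopamine replicate 3 and 0.03 after median-of-ratios scaling. Within each library, the log2 ratio of NQO1 to NQO2 was 3.26 ± 0.154 in control and 3.48 ± 0.116 in dopamine cells, with overlapping groups (exact permutation test, two-sided, p = 0.2, adjusted p = 0.5 over 5 ratios). The difference of 0.22 was 0.14 without control replicate 3.

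The AKR1C genes lie side by side on chromosome 10 and encode hydroxysteroid dehydrogenases that also reduce lipid aldehydes and quinones. Their sequences are so alike that counting can split or drop reads, and each single value is uncertain for that reason. AKR1C1 (ENSG00000187134.8, 4934796 to 5025475), which inactivates progesterone, had 1.09, 1.01 and 0.898 FPKM in the control and 1.26, 1.38 and 1.51 FPKM in the dopamine libraries. AKR1C3 (ENSG00000196139.7, 5077546 to 5149878), which makes testosterone and prostaglandin F, had 0.884, 0.865 and 0.982 FPKM in control and 1.29, 1.35 and 1.13 FPKM in dopamine cells. In both genes the groups were apart, and the control means, below the filter, were 0.999 and 0.910 FPKM. The log2 fold changes were 0.33 (SE 0.14, adjusted p = 0.14) for AKR1C1 and 0.31 (SE 0.14, adjusted p = 0.149) for AKR1C3.

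AKR1C2 (ENSG00000151632.12, 5029967 to 5060223), which reduces dihydrotestosterone, was the lowest of the 10 genes and had the highest ratio. It was measured at 0.0868, 0.0814 and 0.0874 FPKM without and 0.206, 0.178 and 0.192 FPKM with dopamine, a ratio of means of 2.25. The gene length was not given, and the one that brought all 6 values nearest to whole fragments was chosen. At that length, 6.09 kb against 6461 bases of exon in GRCh38, they were whole within 0.008. The fragments were 12, 12 and 11 in control and 26, 21 and 25 in dopamine cells. The 3 dopamine libraries together held 72 fragments against 35 in the control libraries, a rate ratio of 2.26 (exact 95% interval 1.49 to 3.49, which covers counting error only). For AKR1C3 the length chosen in the same way was 4.53 kb, against 4532 bases in GRCh38, with values whole within 0.042. It had 91, 95 and 92 fragments in control and 121, 119 and 109 in dopamine cells, a rate ratio of 1.38 (1.18 to 1.62). With the pseudocount of 0.5 and no filter, the log2 fold change of AKR1C2 was 0.24 (SE 0.06, limma adjusted p = 0.267), and with no pseudocount, a setting chosen after seeing the data, it was 1.17.

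**Figure D2:**
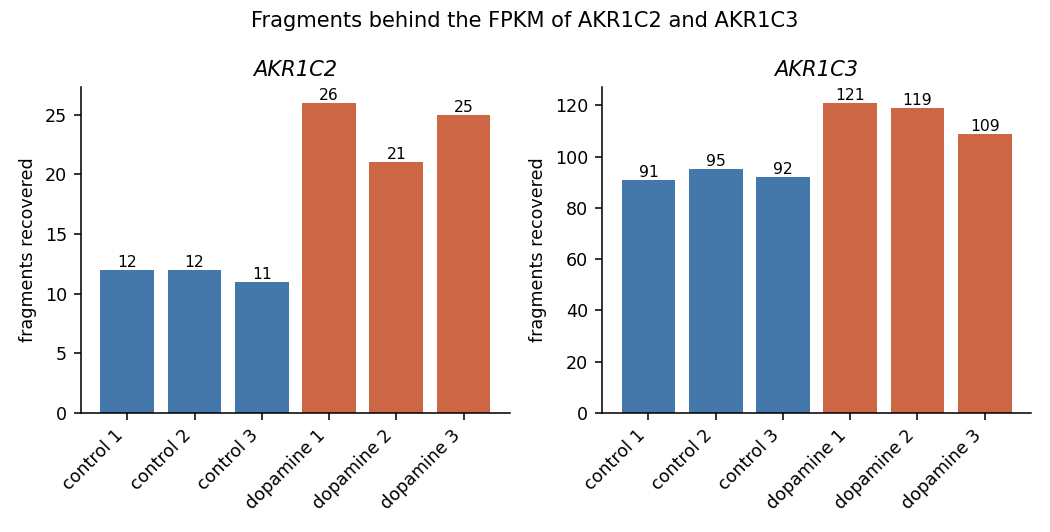
Fragments recovered from the FPKM of AKR1C2 and AKR1C3 in each library (vertical axis, from 0, not scaled to depth). AKR1C2 had 11 to 12 fragments in the control and 21 to 26 in the dopamine libraries, and AKR1C3 91 to 95 and 109 to 121.

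The FPKM of the 3 AKR1C genes were also summed, which depends less on how reads were split among them. It was 2.06, 1.96 and 1.97 FPKM in control and 2.75, 2.92 and 2.83 FPKM in dopamine cells, a log2 difference of 0.51 or 1.42-fold. This difference used no pseudocount, whereas the single-gene and GC class values used 0.5, so their sizes are not directly comparable. The groups were apart (p = 0.1 in a two-sided exact permutation test, which is the lowest p possible with 3 against 3). AKR1C1 and AKR1C3 made up nearly all of the sum, and their log2 ratio was 0.09 ± 0.15 in control and 0.10 ± 0.180 in dopamine cells, with overlapping groups (two-sided exact permutation test, p = 1.0). GC content is low in this cluster, 40.2 to 42.4%, and genes of 40 to 45% GC had a median log2 fold change of 0.32, with 93.2% of them higher with dopamine. After the correction AKR1C1 stood at 0.01 (SE 0.10) and AKR1C3 at 0.01 (SE 0.14), and the groups overlapped in both. AKR1C2 lay below the filter and was not corrected, so the part of GC content in its ratio was not tested.

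AKR1B1 (ENSG00000085662.9, chromosome 7, 134127102 to 134144036) encodes aldose reductase, which reduces glucose and lipid aldehydes. Control cells gave 53.3, 62.9 and 52.4 FPKM and dopamine cells 56.3, 62.6 and 47.3 FPKM. A pair of dopamine libraries fell inside the control range and replicate 3 below it, and the log2 fold change was -0.02 (95% interval -0.28 to 0.23, adjusted p = 0.891). Its sign turned after quantile normalization (0.03) and without control replicate 2 (0.06) or dopamine replicate 3 (0.08). Against its relative AKR1A1, the aldehyde reductase, the log2 ratio within libraries was 1.51 ± 0.089 in control and 1.57 ± 0.086 in dopamine cells (exact permutation test, two-sided, p = 0.5, adjusted p = 0.625 over 5 ratios). The difference of 0.06 ran from 0.01 without dopamine replicate 2 to 0.11 without control replicate 2.

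CBR1 (ENSG00000159228.8, chromosome 21, 37442239 to 37445464) encodes a carbonyl reductase of quinones, prostaglandins and anthracyclines. The control libraries were close together, at 32.8, 32.7 and 33.2 FPKM, and those with dopamine were at 34.0, 35.9 and 35.3 FPKM. All dopamine libraries lay above the controls, yet by little: the ratio of means was 1.07 and the log2 fold change 0.09 (95% interval -0.06 to 0.25, adjusted p = 0.355). The sign turned after median-of-ratios scaling (-0.02), which also moved the median of all tested genes from 0.08 to -0.02. Its paralog CBR3 stood at 6.95 ± 0.544 and 8.15 ± 0.746 FPKM (adjusted p = 0.179), a log2 fold change of 0.21 that became 0.32 after the correction. The log2 ratio of CBR1 to CBR3 was 2.17 ± 0.119 in control and 2.04 ± 0.103 in dopamine cells, with overlapping groups (exact permutation test, two-sided, p = 0.3, adjusted p = 0.5 over 5 ratios). The difference of -0.12 was -0.06 without control replicate 3 and -0.07 without dopamine replicate 2. CBR1 lies wholly inside SETD4 in the table, whose level was 1.83 FPKM, and POR shares 19 bases with TMEM120A (25.1 FPKM). NQO1, NQO2 and EPHX1 each overlap an antisense gene, at mean levels of 0.445, 0.497 and 2.57 FPKM. AKR1C2 overlaps the antisense gene RP11-499O7.7 over 1893 bases, whose group means of 0.062 and 0.068 FPKM stand near the control level of AKR1C2. The kit keeps the strand, but no source used here gives the strand setting of the counting, and reads of such pairs cannot be told apart.

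POR (ENSG00000127948.9, chromosome 7, 75528518 to 75616173) encodes the reductase that passes electrons from NADPH to cytochrome P450 enzymes, squalene epoxidase and heme oxygenase. The gene stood at 19.7, 20.8 and 21.1 FPKM in control libraries and at 24.9, 24.5 and 22.0 FPKM with dopamine, a ratio of means of 1.16. The groups were apart, with dopamine replicate 3 nearest to the controls. As deposited the log2 fold change was 0.21 (SE 0.08, 95% interval 0.03 to 0.38, adjusted p = 0.129). POR is GC-rich, at 61.3%, and genes of 60 to 65% GC had a median of -0.16, with 11.6% of them higher with dopamine.

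After the GC and length correction POR was the single gene of the 9 that passed (limma adjusted p = 0.031), at a log2 difference of 0.36 with an SE of 0.05. In that fit 0.225% of all genes passed. Its corrected log2 values were 4.30, 4.33 and 4.33 in control and 4.68, 4.65 and 4.70 in dopamine cells, with all 3 replicates of each group close together. It also passed with sample quality weights (adjusted p = 0.0238), when 22.9% of all genes did. After median-of-ratios scaling the log2 fold change was 0.09 (adjusted p = 0.533), the highest adjusted p of the 21 alternatives. With a replicate block beside the correction the adjusted p was 0.089, which ended the call. In a list of electron acceptors and partners of POR, which holds P450 enzymes, heme oxygenases and the cytochrome b5 system, 12 genes were tested and HMOX1 alone rose, from 33.0 ± 4.74 to 429 ± 39.5 FPKM (adjusted p = 6.06e-07). The next by p in that list were the P450 genes CYP2J2, at 1.06 ± 0.139 and 1.61 ± 0.202 FPKM, and CYP2R1, at 1.13 ± 0.147 and 1.67 ± 0.169 FPKM (adjusted p = 0.113 and 0.114). Their log2 fold changes of 0.44 and 0.41 became 0.11 and 0.08 after the correction.

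EPHX1 (ENSG00000143819.8, chromosome 1, 225997794 to 226033260) encodes the microsomal epoxide hydrolase. Control libraries held 47.1, 44.7 and 46.3 FPKM, and dopamine libraries 51.9, 46.5 and 38.7 FPKM. The dopamine libraries lay on both sides of the controls, and their coefficient of variation was 14.4% against 2.69%. The log2 fold change was -0.02 (95% interval -0.25 to 0.21, adjusted p = 0.905), and its sign turned after the GC and length correction (0.05) and without dopamine replicate 3 (0.09).

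GSTP1 (ENSG00000084207.11, chromosome 11, 67351066 to 67354131) encodes the pi class glutathione transferase, which joins glutathione to electrophiles, quinones among them. Levels were 235, 276 and 233 FPKM in control and 238, 237 and 185 FPKM in dopamine cells. A pair of dopamine libraries lay inside the control range and dopamine replicate 3 below it. The log2 fold change was -0.18 (95% interval -0.43 to 0.08, adjusted p = 0.293). It was -0.06 without dopamine replicate 3 and -0.02 after the correction, and genes of its GC class (62.5% for GSTP1) had a median of -0.16. The log2 ratio of GSTP1 to the microsomal transferase MGST3 was 4.39 ± 0.058 in control and 4.12 ± 0.11 in dopamine cells, and these groups were apart (p = 0.1 in a two-sided exact permutation test, the lowest possible here, adjusted p = 0.5 over 5 ratios). MGST3 has a GC content of 44.0%, so this pair also differs in GC class.

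**Figure D3:**
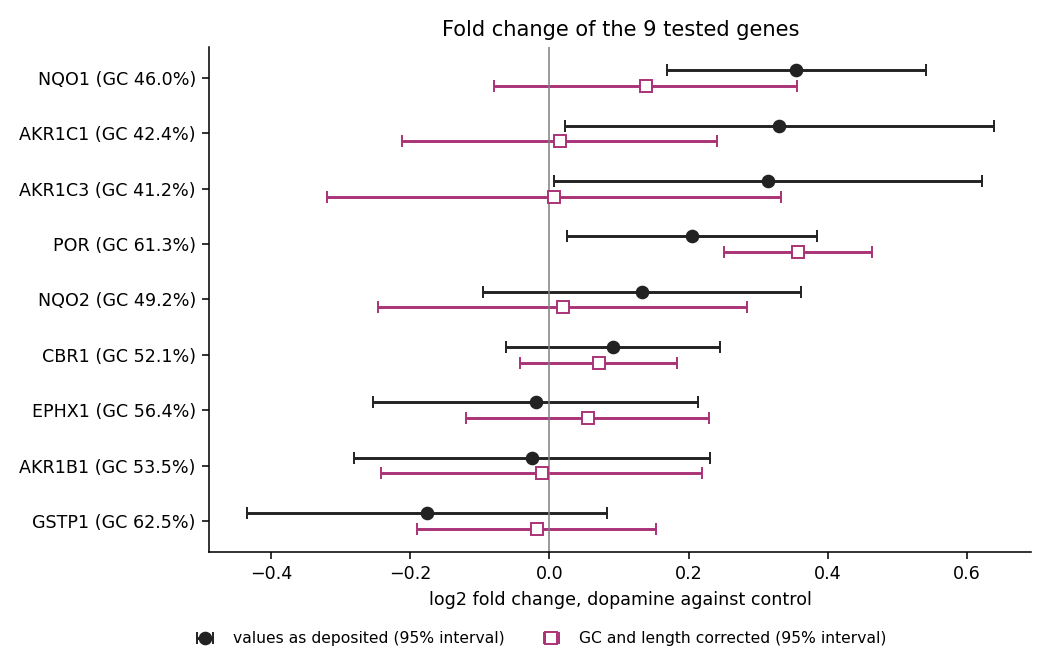
Log2 fold change of dopamine against control for the 9 tested genes, with 95% intervals, for values as deposited (filled circles) and after the GC and length correction (open squares). As deposited the intervals of NQO1, AKR1C1, AKR1C3 and POR lie above 0, and after the correction that of POR alone.

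As deposited, the median log2 fold change of all tested genes fell from 0.46 at 30 to 35% GC to -0.19 at 65 to 70% GC. Of the 10 genes, 5 have a GC content below 50% (NQO1, NQO2 and the AKR1C genes), and each of them had the higher mean in dopamine cells. Of all tested genes, 93.2% at 40 to 45% GC and 81.6% at 45 to 50% GC did so too. AKR1C2 was not tested, and AKR1C1 and AKR1C3 passed the filter only through their dopamine values. Of the 5 above 50%, CBR1 and POR had a higher mean. The share of all tested genes was 48.4% at 50 to 55% GC, 20.9% at 55 to 60% and 11.6% at 60 to 65%. Between the lower and upper quartile, genes of 40 to 45% GC ran from 0.20 to 0.43, a range that held AKR1C1 and AKR1C3 at the pseudocount of 0.5. With a pseudocount of 0.1 they stood at 0.435 and 0.423, while the class range is given only at 0.5. A pseudocount lowers the fold change of such low genes more than that of higher ones. NQO1 lay above the quartile range of its class, 0.04 to 0.28. With 46.0% GC it stands near the class edge, and its 0.36 lay inside the range at 40 to 45% GC, 0.20 to 0.43. POR lay above the quartile range of its class too, -0.23 to -0.09.

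**Figure D4:**
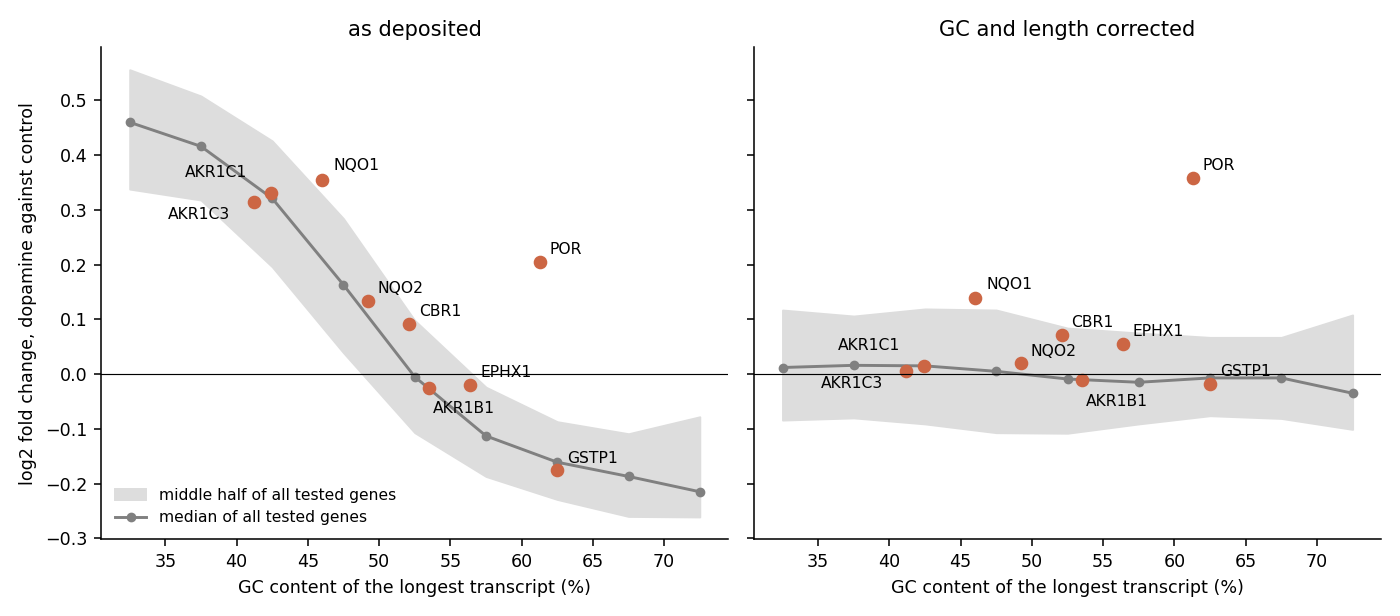
Log2 fold change (vertical axis) against GC content of the longest transcript (horizontal axis, %) for the 9 tested genes (orange), over the median (grey line) and quartile range (shading) of all tested genes in classes of GC content. POR and NQO1 stand above the shading in both panels, and AKR1C1 and AKR1C3 lie close to the median.

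Relatives of the 10 genes were described in lists written from textbook knowledge (limma, p adjusted over 11791 genes, or over 11579 after the correction). An unadjusted p under 0.05 was reached by 24.4% of all tested genes on the higher side and 8.05% on the lower, against which the counts that follow are to be read. Of 15 tested aldo-keto and carbonyl reductase relatives none passed, while 1 was higher with an unadjusted p below 0.05. That was DHRS7, a short-chain dehydrogenase, which had the smallest p, at 5.49 ± 0.543 and 7.16 ± 0.452 FPKM (adjusted p = 0.11), and the succinic semialdehyde reductase AKR7A2 stood at 33.8 ± 1.07 and 30.3 ± 2.29 FPKM. Of 15 other quinone and single-electron reductases none passed, and at an unadjusted p under 0.05 there were 3 higher and 2 lower. They included CRYZ, the zeta-crystallin quinone reductase, at 3.86 ± 0.832 and 5.91 ± 0.774 FPKM, PTGR1, a reductase of enones and an NRF2 target, at 3.38 ± 0.114 and 4.63 ± 0.195 FPKM, and the cytochrome b5 reductase CYB5R3, lower at 49.5 ± 1.97 and 42.9 ± 1.93 FPKM. After the GC and length correction the log2 fold change of DHRS7 went from 0.36 to 0.14, that of AKR7A2 from -0.16 to -0.03 and that of CRYZ from 0.57 to 0.15. PTGR1 went from 0.40 to 0.10 and CYB5R3 from -0.20 to -0.06.

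Of 12 aldehyde dehydrogenases none passed, and 1 was higher at an unadjusted p under 0.05, the fatty aldehyde dehydrogenase ALDH3A2 at 4.11 ± 0.431 and 6.06 ± 0.903 FPKM. Of 15 other glutathione transferases none passed, with 3 higher and 1 lower at that p, near the shares of 24.4% and 8.05% over all tested genes. GSTA4, which conjugates hydroxynonenal, stood at 9.24 ± 0.311 and 12.2 ± 0.833 FPKM, PTGES, a prostaglandin E synthase of the same superfamily, at 1.38 ± 0.154 and 2.24 ± 0.253 FPKM, and GSTT1 at 7.05 ± 0.162 and 5.70 ± 0.749 FPKM. Of 2 tested epoxide hydrolases LTA4H stood at 5.82 ± 0.665 and 8.06 ± 0.998 FPKM. Of 4 genes that conjugate catechols and phenols none passed. The sulfotransferases SULT1E1, at 7.03 and 9.87 FPKM in group means, and SULT1B1, at 6.61 and 9.24 FPKM, had an unadjusted p under 0.05. After the correction the log2 fold change of GSTA4 went from 0.38 to 0.05, of LTA4H from 0.44 to 0.08, of SULT1E1 from 0.48 to 0.13 and of SULT1B1 from 0.47 to 0.03. ALDH3A2 went from 0.51 to 0.31 and PTGES from 0.54 to 0.63, while GSTT1 had no GC value. Of 6 exporters of glutathione conjugates none passed.

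NADPH feeds nearly all of these reductases. Of 18 genes that supply it none passed, while 7 were higher and 1 lower with an unadjusted p below 0.05, against 24.4% and 8.05% of all tested genes. Their median log2 fold change was 0.00. MTHFD2, a mitochondrial folate enzyme, stood at 7.24 ± 0.737 and 10.6 ± 1.66 FPKM, IDH1 at 10.3 ± 1.82 and 14.4 ± 1.66 FPKM and ME1 at 6.05 ± 0.598 and 8.13 ± 1.43 FPKM. All 3 have a GC content below 45%, and after the correction their log2 fold changes went from 0.52 to 0.16, from 0.48 to 0.18 and from 0.39 to -0.01. Among 6 tested genes of the aryl hydrocarbon receptor pathway, which can also raise NQO1, none passed, and NQO1 was the member with an unadjusted p under 0.05. The classic target CYP1A1 stood at 0.11 and 0.086 FPKM, below the filter.

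Of 24 tested textbook NRF2 targets outside the 10 genes, HMOX1, GCLM and TXNRD1 rose, 14 were higher at an unadjusted p under 0.05, against 24.4% of all tested genes, and the median log2 fold change was 0.25. GCLC, counted among the 14, passed the filter only through its dopamine values, at means of 0.964 and 1.51 FPKM. It had to be higher to be counted, and the count is a description. After the GC and length correction 5 of the list rose, SLC7A11 (0.78, adjusted p = 0.0205) and OSGIN1 (0.80, adjusted p = 0.0141) being the additions, both named after their values were seen, and the list median was 0.11. GCLM went from 5.17 ± 0.786 to 13.0 ± 1.24 FPKM (1.25 on the log2 scale, limma adjusted p = 0.00626) and TXNRD1 from 18.8 ± 2.31 to 37.7 ± 5.31 FPKM (0.98, adjusted p = 0.0199). After the correction HMOX1 stood at 3.79, GCLM at 0.82 and TXNRD1 at 0.72. NQO1, with 0.36 as deposited and 0.14 after the correction, lay below these 3 in size on both scales, and the size of that gap was not tested. Among 13 regulators of NRF2 none passed, and at an unadjusted p under 0.05 there were 2 higher and 2 lower. NFE2L2, which encodes NRF2, stood at 4.64 ± 1.30 and 6.84 ± 0.782 FPKM (adjusted p = 0.113), KEAP1 at 23.5 ± 0.124 and 23.5 ± 2.38 FPKM, the repressor gene BACH1 at 1.41 ± 0.459 and 2.35 ± 0.133 FPKM (adjusted p = 0.11), and the KEAP1-binding phosphatase gene PGAM5 at 21.2 ± 0.778 and 16.5 ± 2.01 FPKM (adjusted p = 0.11). After the correction NFE2L2 went from 0.54 to 0.31, BACH1 from 0.61 to 0.19, PGAM5 from -0.36 to -0.30 and KEAP1 from 0.00 to 0.14, all as log2 fold changes.

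**Figure D5:**
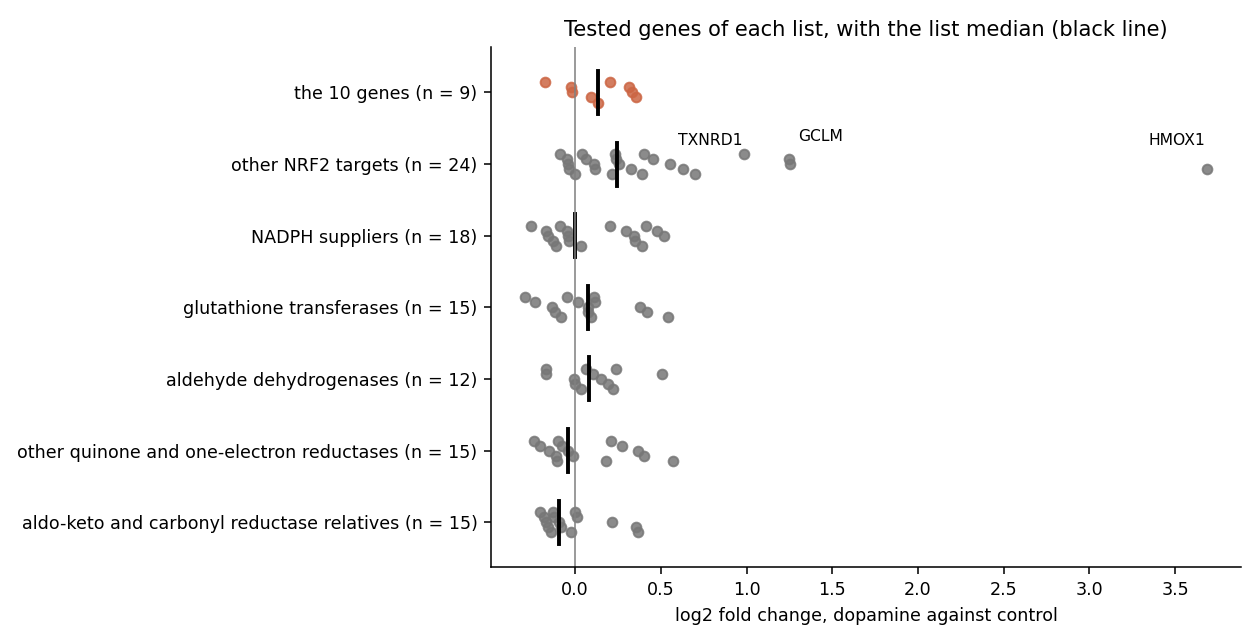
Log2 fold change (horizontal axis) of each tested gene in 7 lists, a point per gene, with the list median as a black line. The 9 tested genes of the set lie between -0.18 and 0.36, while HMOX1, GCLM and TXNRD1 of the NRF2 list stand at 3.69, 1.25 and 0.98.

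Of 3841 other protein-coding genes with a mean of at least 10 FPKM, 70 had a profile over the 6 libraries within 0.1 log2 units (root mean square distance, after subtracting each gene's mean) of that of NQO1. The nearest were EMC3, a subunit gene of the endoplasmic reticulum membrane complex, at 0.02, VIMP, a selenoprotein gene, at 0.04, RPS12, FAM103A1 and MGP. Group means of EMC3 went from 12.4 to 15.7 FPKM and VIMP from 11.1 to 13.6 FPKM.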

How the data were processed

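RNA of 6 samples was sequenced as rRNA-depleted total RNA libraries, per the labels' protocols. The authors deposited a table of FPKM, with hg19 coordinates. The submitters' processing notes name the build hg19, the tools DESeq2 1.40.2, HTSeq 0.11.2 and STAR 2.7.1a, and FastQC 0.11.9, without their roles. No source used here gives the gene lengths behind the FPKM.

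Genes with a mean of at least 1 FPKM were tested on log2(FPKM + 0.5) with limma 3.58.1 (R 4.3.3, trended prior, no covariate), and p was adjusted over 11791 genes. A pseudocount understates the change of low genes. GC content and length came from the longest GENCODE v29 transcript of each gene ID (GRCh38, 98.2% of tested genes), and each library was corrected by loess (span 0.5). Depth came from whole-fragment steps in 2797 pseudogenes, where 92.1 to 94.1% of values were whole within 0.03. Promoter windows are RefSeq's (GRCh38.p14). Scripts were tested on simulated data.

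Members and gene lists were chosen with earlier results of these data known. Named were all 10 members, up to 3 genes with the smallest p of each list, a few fixed relatives, and the 5 genes most like NQO1. The values of some genes under this rule are not reported here.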

Additional observations from a re-analysis of the deposited data

How the results depend on the processing

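The number of genes called, 12, became 6 without a filter on low values, 27 after quantile normalization, 5 without the trend, 2706 with sample quality weights, 26 after the GC and length correction, 7 without replicate 3 of both groups and 6 at a threshold of 0.01. Leaving out 1 library gave 3 (without control replicate 2) to 2193 (without control replicate 1). Of the 9 tested genes described here, 4 were called with sample quality weights (NQO1, NQO2, AKR1C3 and POR), 1 after the GC and length correction (POR), and 0 to 1 when a library was left out (NQO1, without control replicate 1). The count with groups apart, 5, was 3 at a filter of 5 FPKM, where fewer genes were tested, 1 after median-of-ratios scaling, 2 after the GC and length correction and 2 with that correction and a replicate block. The share over all genes is given only for the main fit (24.4%) and the GC and length correction (12%). The other counts therefore cannot be read as a result about these genes. AKR1B1 turned to 0.025 after quantile normalization and 0.036 without replicate 3 of both groups, and ran from -0.117 to 0.083 when a library was left out (0.058 without control replicate 2, 0.083 without dopamine replicate 3). CBR1 turned to -0.022 after median-of-ratios scaling. EPHX1 turned to 0.006 after quantile normalization, 0.088 with sample quality weights, 0.055 after the GC and length correction with or without a replicate block, and 0.098 without replicate 3 of both groups, and ran from -0.115 to 0.093 when a library was left out. The log2 ratio of AKR1C1 to AKR1C3 changed sign to -0.070 when control replicate 3 was left out, -0.087 when dopamine replicate 3 was and -0.173 with neither, in a range up to 0.079. AKR1C2, in alternatives chosen after seeing the data, had log2 fold changes of 0.656 with a pseudocount of 0.1 and 1.171 with none. The cause was not tested for these changes.

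Replicate numbers are shared between groups. As deposited, same-numbered samples did not deviate together (r = -0.20, 0.28 and -0.37), and 2 of 6 libraries correlated best with their own number. The GC slopes also differed within groups, and these correlations were not computed after the correction, so they cannot show that pairing is absent. With the GC and length correction, a replicate block changed the SE of AKR1B1 from 0.1 to 0.04 and of NQO1 from 0.094 to 0.057. CBR1, POR, EPHX1 and GSTP1 also had a lower SE, while NQO2, AKR1C1 and AKR1C3 had a higher one (AKR1C3 from 0.141 to 0.165). With a replicate block 3 genes were called, or 8 with the GC and length correction as well, and in both fits 0 of the 9 genes described here.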
